A study of Sus scrofa with 6 samples.

Results

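The genes described here carry water and salt handling along the nephron: the water channels AQP1, AQP2, AQP3 and AQP4, the vasopressin receptor AVPR2, the mineralocorticoid receptor NR3C2 and the enzyme HSD11B2 that guards it, and the tubular products UMOD, EGF and CALB1. Members were all array probes whose design symbol was one of these 10 names. This gave 14 of 43603 probes, for 9 of the 5271 genes that could be named on the array, and 1 gene, UMOD (uromodulin, the main protein made by the thick ascending limb), had no probe under its symbol and is not analysed here. Renal cortex from Large White pigs aged 3 months was measured on 1 one-colour Agilent array per kidney. In the ischemia group (n = 3) kidneys were clamped, taken out and kept clamped for 60 min at 37 °C, then flushed with University of Wisconsin solution at 4 °C, an organ preservation fluid, and stored at 4 °C for 24 h. In the control group (n = 3) kidneys were taken out, sampled and frozen at once. The labels state that all kidneys came from different pigs. Warm ischemia, flush and cold storage were applied as 1 sequence, and their effects cannot be told apart.

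Water and salt are recovered from the filtrate in stages. The proximal tubule and the descending thin limb take back water through AQP1, the thick ascending limb removes salt without water, and the distal convoluted tubule adjusts sodium, calcium and magnesium. In the last stretch, aldosterone acting on NR3C2 raises sodium uptake, and vasopressin acting on AVPR2 moves AQP2 into the apical membrane of principal cells, while AQP3 and AQP4 let the water leave on the blood side. The thin limbs and much of the collecting duct lie in the medulla, so renal cortex samples only the cortical share of these segments.

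The arrays read each gene through probes of 60 bases. The pair for AQP2, whose values did not run together over the 6 arrays, and the single probes for HSD11B2 and AQP1, which had the most negative differences, are shown as the scanner files give them, together with the AQP4 probe, which gave no signal above background. Their GC content was 60% and 55% for the AQP2 probes, 55% for HSD11B2, 53.3% for AQP1 and 45% for AQP4.
AQP2 A_72_P414263: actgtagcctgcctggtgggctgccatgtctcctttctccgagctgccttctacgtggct
AQP2 A_72_P705562: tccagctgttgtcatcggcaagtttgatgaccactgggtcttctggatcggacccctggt
HSD11B2 A_72_P165121: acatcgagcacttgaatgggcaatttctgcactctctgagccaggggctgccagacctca
AQP1 A_72_P302884: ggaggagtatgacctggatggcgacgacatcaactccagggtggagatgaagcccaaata
AQP4 A_72_P165426: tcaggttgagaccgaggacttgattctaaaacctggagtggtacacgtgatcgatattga

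Across the nephron, mean signals of AQP1, AQP2, AQP3, EGF, HSD11B2 and both hormone receptors were lower in ischemia than in control kidneys, though for the receptors and 1 EGF probe this turned with the scaling of the arrays. Those of CALB1 were higher. No difference passed the test. Of the 13 probes tested, 11 had a difference below 0 and 2 above it, both of CALB1, while 55.7% of all 25017 probes tested lay below 0. The probes stood for 8 genes, and probes of the same gene are not separate readings. By gene, 7 of 8 had every tested probe below 0, where 47.4% of named genes lay below 0 by their brightest probe. No member passed the limma test at a Benjamini-Hochberg adjusted p under 0.05, where 0.004% of all probes did, and none had an unadjusted p under 0.05, where 6.29% did. The adjusted p-values of the members ran between 0.861 and 0.993. In 0 of 13 probes did the ischemia values lie apart from the control values, against 10.9% of all probes. The median difference of the members was -0.30 on the log2 scale, beside -0.042 for all probes tested. The median standard error was 0.31 for the members and 0.26 for all probes, so the number of kidneys limits every value, and a p that misses the threshold does not show that the groups did not differ.

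The direction of the small differences depended on how the arrays were scaled. Signals are given as log2 of the spot signal relative to the 75th percentile of the same array. Centring each array on its median instead shifted the median difference of all probes to 0.11, and in the authors' deposited values it was 0.14. Members below 0 then numbered 8 of 13 under median centring, and 5 of 8 among those found in the deposited table. Counted against the median of all probes, 10 of 13 members lay below it under either scaling. Median centring moves all values of an array by a single constant, so it shifts the members and that median nearly alike. The count could therefore hardly change between these scalings, and its repeat is no separate result. In the deposited values, 6 of 8 members lay below the median of all probes.

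Each of the 3 slides carried 1 ischemia and 1 control array, so a difference within each slide is also given. The share of spots well above background ran between 52.6% and 61.4% over the arrays, and any pair of arrays correlated at 0.960 to 0.983. The 75th percentile of signal was 420 on the array of ischemia kidney 1 and between 247 and 294 on the others. Position on the slide was the same within a group, 3 for ischemia and 4 for control arrays, so an effect of position and one of ischemia cannot be told apart.

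**Figure D1:**
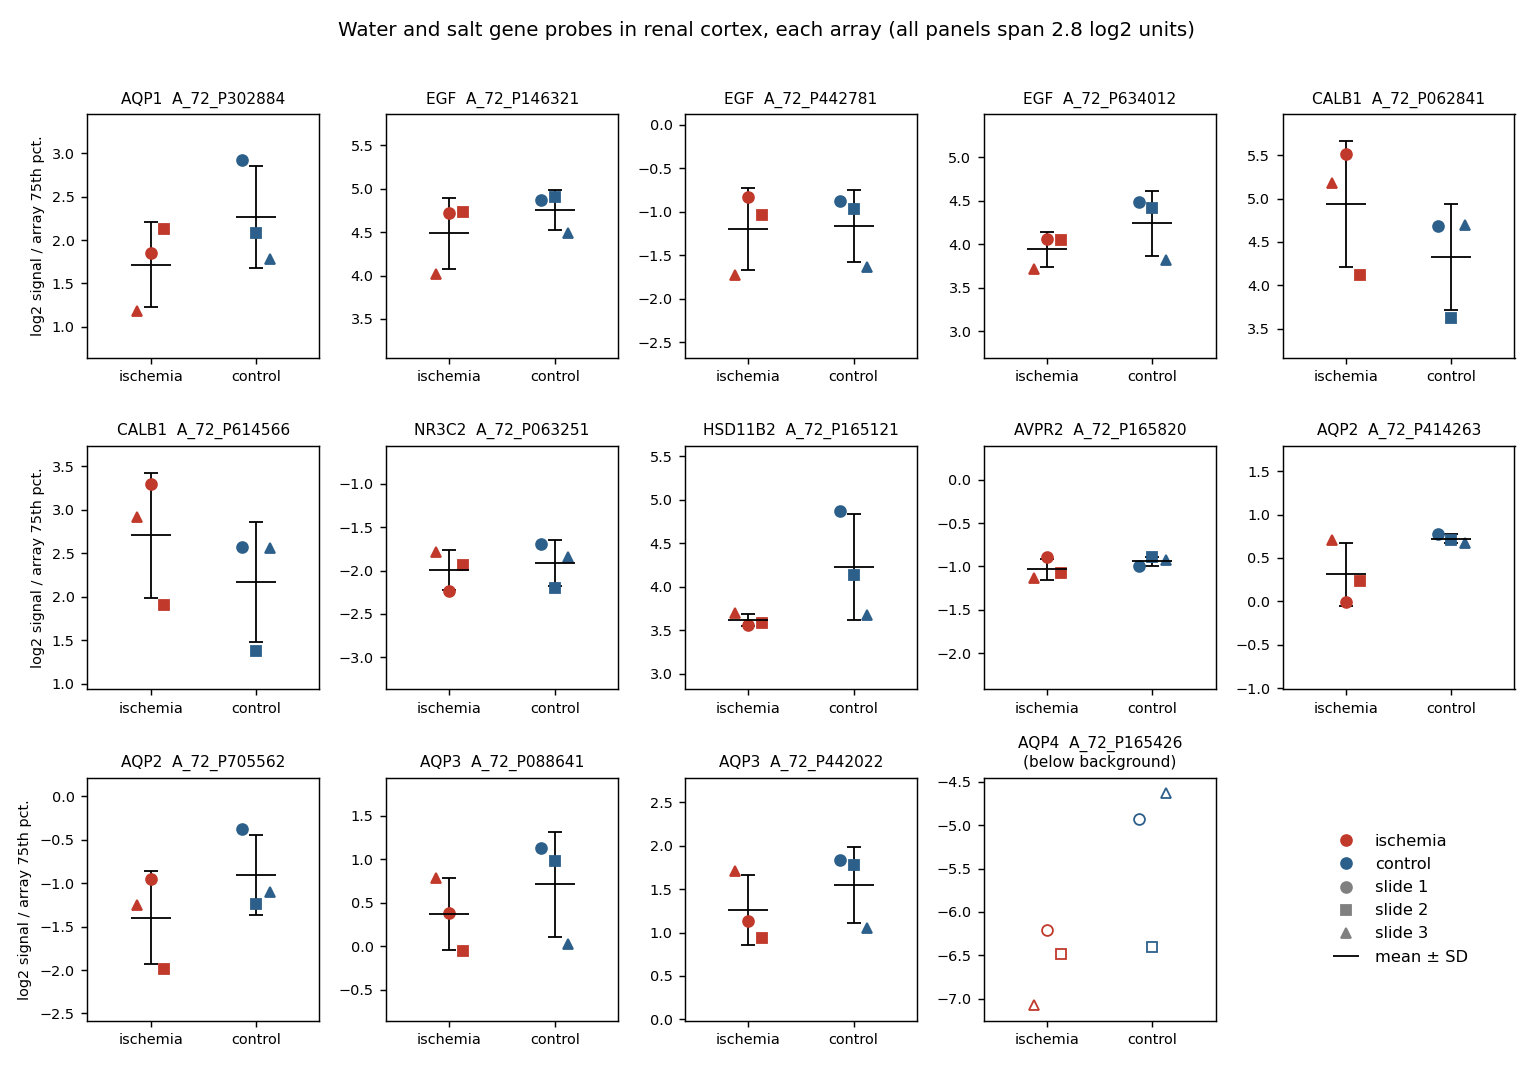
Signal of each probe on each array, as log2 relative to the 75th percentile of the array, with ischemia kidneys left and control kidneys right. Symbols mark the slide and bars the mean ± SD of 3 kidneys; open symbols for AQP4 were not well above background and have no bar. The groups overlap in every tested panel.

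AQP1, the constitutive water channel of the proximal tubule and descending thin limb, read 1.18, 1.85 and 2.13 in ischemia kidneys 1 to 3, against 2.92, 2.08 and 1.79 in control kidneys 1 to 3. The highest value was control kidney 1 and the lowest was ischemia kidney 1, and the other 4 values interleaved. The means were 1.72 ± 0.49 in ischemia and 2.26 ± 0.59 in control kidneys (SD, n = 3 each), a difference of -0.55 ± 0.37 (SE; 95% interval -1.42 to 0.33), or 1.46-fold lower after ischemia (limma adjusted p = 0.905). Within slides 1, 2 and 3 the difference was -1.07, 0.044 and -0.61. Without control kidney 1 it was -0.22, and without ischemia kidney 1 it was -0.28. In bulk tissue, fewer cells of a type and less RNA per cell cannot be told apart.

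AQP1 shares its main segment with a list of 19 tested proximal tubule genes, all above background on at least 3 arrays. Of these 4 were higher and 15 lower, where 47.4% of named genes were lower, and their median difference was -0.39 beside 0.015 for all 4121 named genes. In the fit without a block, from which all list counts are taken, none passed the adjusted threshold, and 5 were lower at an unadjusted p under 0.05, where 2.89% of all named genes were. The summed signal of the list was 1141 to 1350 in ischemia and 1334 to 1610 in control kidneys, relative to the 75th percentile on a linear scale, so the ranges overlapped slightly. SLC22A6, the organic anion uptake carrier of the basolateral membrane, had the smallest p in the list: 5.37, 4.51 and 3.99 in ischemia kidneys, against 5.87, 5.40 and 5.69 in control kidneys, a difference of -1.03 ± 0.36 (limma adjusted p = 0.729). Every ischemia value of this gene lay below every control value, as in 4.25% of named genes in that direction. ANPEP, a brush border peptidase, differed by -0.73 ± 0.28, and GATM, the first enzyme of creatine synthesis, by -0.75 ± 0.30. Over the 6 arrays, the AQP1 values ran most closely with LGI3 (Pearson r = 0.976), SCUBE3 (r = 0.973) and PLET1 (r = 0.972) among 4112 genes. They were picked as the highest of that number over only 6 arrays, which share groups and slides, and describe these arrays only.

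EGF, the epidermal growth factor precursor made by the thick ascending limb and distal convoluted tubule, was read by 3 probes. The brightest, A_72_P146321, gave 4.01, 4.72 and 4.73 in ischemia kidneys, against 4.87, 4.90 and 4.49 in control kidneys. Its means were 4.49 ± 0.41 and 4.76 ± 0.23 in ischemia and control kidneys (SD, n = 3 each), and the difference was -0.27 ± 0.26 (SE; 95% interval -0.89 to 0.35; limma adjusted p = 0.940). Ischemia kidney 1 was the lowest of the 6, and without it the difference was -0.033.

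Probe A_72_P634012 of EGF gave 3.71, 4.06 and 4.05 in ischemia kidneys, against 4.48, 4.42 and 3.81 in control kidneys, a difference of -0.30 ± 0.25 (limma adjusted p = 0.929), which was -0.18 without control kidney 1 and -0.51 without control kidney 3. Both of these probes were lower in the ischemia kidney on each slide, with differences of -0.16, -0.17 and -0.48 for the first and of -0.42, -0.37 and -0.10 for the second, as were 16.6% of all probes. The dim probe A_72_P442781 gave -1.73, -0.82 and -1.04 in ischemia kidneys, against -0.87, -0.97 and -1.64 in control kidneys, and its difference of -0.037 ± 0.32 turned positive with median centring (0.115) and quantile normalization (0.052). The 3 EGF probes ran together over the arrays, with Pearson r between 0.819 and 0.876, and ischemia kidney 1 and control kidney 3, which share slide 3, were the lowest of their groups on each.

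CALB1, calbindin-D28k, the protein that ferries calcium through cells of the distal convoluted and connecting tubule, was the only member with differences above 0 under the 75th percentile scaling. Probe A_72_P062841 read 5.18, 5.51 and 4.12 in ischemia kidneys, against 4.68, 3.63 and 4.69 in control kidneys. Ischemia kidneys 1 and 2 were the highest of the 6 and control kidney 2 the lowest, but ischemia kidney 3 lay below control kidneys 1 and 3. The means were 4.94 ± 0.73 and 4.33 ± 0.61 in ischemia and control kidneys (SD, n = 3 each), a difference of 0.61 ± 0.44 (SE; 95% interval -0.43 to 1.65) or 1.52-fold (limma adjusted p = 0.910).

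The second CALB1 probe, A_72_P614566, read 2.92, 3.29 and 1.91 in ischemia kidneys, against 2.58, 1.38 and 2.56 in control kidneys, a difference of 0.54 ± 0.46 (limma adjusted p = 0.930). The probes gave nearly the same order of kidneys (Pearson r = 0.996 over the 6 arrays) and a similar spread over the 6 kidneys, 1.89 and 1.92 log2 units. The ischemia kidney was higher on each slide, by 0.83, 0.49 and 0.49 for the first probe and by 0.72, 0.53 and 0.36 for the second. Higher values on all 3 slides were found in 13.1% of all probes. With slide as a block the CALB1 differences had intervals of 0.11 to 1.1 and 0.044 to 1.03, with unadjusted limma p of 0.0242 and 0.0372 and adjusted p of 0.455 and 0.507. At an unadjusted p under 0.05 that fit had 9.27% of all probes in either direction, 3.65% higher, and 0% passed after adjustment. Without control kidney 2 the differences were 0.25 and 0.14, and without ischemia kidney 3 they were 1.01 and 0.93 (limma adjusted p = 0.604 and 0.667). Without ischemia kidney 2 they were 0.32 and 0.24.

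**Figure D2:**
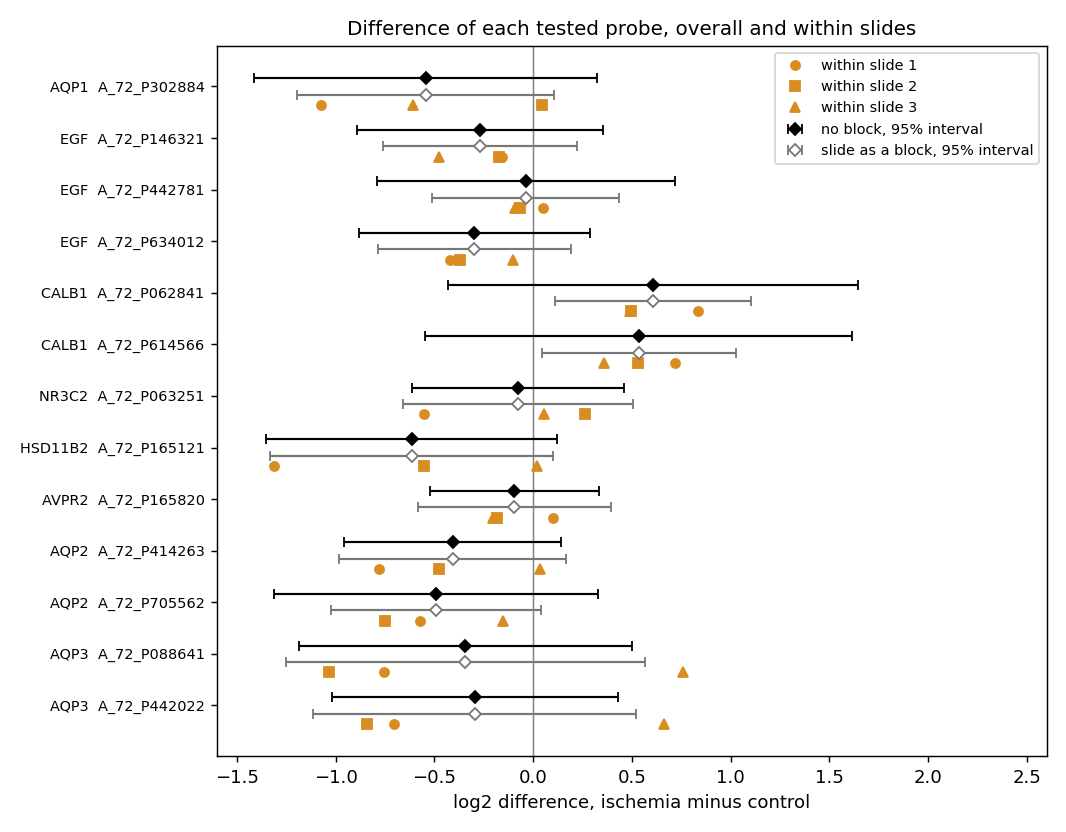
Log2 difference, ischemia minus control, of the 13 tested probes, with the 95% interval from limma without a block (filled diamonds) and with slide as a block (open diamonds), and the difference within each slide (orange symbols). Every interval without a block includes 0; with the slide block those of the CALB1 probes, 0.11 to 1.1 and 0.044 to 1.03, do not.

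Genes that work beside EGF and CALB1 showed no common direction. Of 9 tested thick ascending limb genes 2 were higher and 7 lower, where 47.4% of named genes were lower. Their median was -0.14, and none had an unadjusted p under 0.05. That median was 0.015 with median centring and 0.044 without ischemia kidney 3. CASR, the calcium-sensing receptor, differed by -1.71 ± 0.90, but its signal was above background on only 1 ischemia and 2 control arrays. The tight junction genes of magnesium and calcium reabsorption, CLDN19 and CLDN16, differed by -0.48 ± 0.33 and -0.26 ± 0.29. Of 16 tested genes of the distal convoluted tubule and of calcium and magnesium transport, 10 were higher and 6 lower, with a median of 0.015 and none at an unadjusted p under 0.05.

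The members of that list with the smallest p were calcium genes. VDR, the vitamin D receptor, through which vitamin D raises calbindin in the kidney, read -0.53, -0.36 and -1.53 in ischemia kidneys, against -0.86, -2.30 and -1.32 in control kidneys, a difference of 0.69 ± 0.45 (limma adjusted p = 0.905). It was higher in the ischemia kidney on each slide, by 0.50, 0.77 and 0.79. The slide block gave an interval of 0.20 to 1.17 (limma unadjusted p = 0.0136, adjusted p = 0.401). In that fit 3.65% of all probes were higher at an unadjusted p under 0.05, and 9.27% passed in either direction. S100G, the other calbindin, calbindin-D9k, read -0.49, -1.20 and -0.95 in ischemia kidneys, against -2.74, -1.87 and -0.35 in control kidneys, a difference of 0.77 ± 0.57 (limma adjusted p = 0.911). The groups overlapped for both genes. SLC8A1, the sodium-calcium exchanger by which calcium leaves these cells, differed by -0.40 ± 0.29.

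The aldosterone response was read through NR3C2 and HSD11B2. HSD11B2, the enzyme that inactivates cortisol so that aldosterone can reach the receptor, gave 3.69, 3.56 and 3.58 in ischemia kidneys, against 4.88, 4.14 and 3.67 in control kidneys. The ischemia values lay close together. Ischemia kidneys 2 and 3 lay below every control kidney, and ischemia kidney 1 just exceeded control kidney 3. The means were 3.61 ± 0.069 in ischemia and 4.23 ± 0.61 in control kidneys (SD, n = 3 each).

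The HSD11B2 difference was -0.62 ± 0.31 (SE; 95% interval -1.35 to 0.12), or 1.53-fold lower after ischemia, with the smallest p of the members (limma unadjusted p = 0.0892, adjusted p = 0.861). Within slides 1, 2 and 3 the difference was -1.31, -0.55 and 0.019. Without control kidney 1 it was -0.29, and without control kidney 3 it was -0.89 (limma adjusted p = 0.720 and 0.619).

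NR3C2, the mineralocorticoid receptor, gave -1.79, -2.24 and -1.94 in ischemia kidneys, against -1.69, -2.20 and -1.85 in control kidneys, a difference of -0.077 ± 0.23 (SE; 95% interval -0.61 to 0.46; limma adjusted p = 0.970). The groups covered nearly the same range. The sign turned with median centring (0.075), quantile normalization (0.037) and in the deposited values (0.120). Another probe, A_72_P120421, whose description names a sheep mineralocorticoid receptor but which carries no member symbol, was looked up after its values had been seen. It gave 1.22, 1.23 and 1.43 in ischemia kidneys, against 1.45, 1.24 and 1.36 in control kidneys, a difference of -0.057 ± 0.18.

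Of 12 tested genes of the epithelial sodium channel and the aldosterone response, 8 were higher and 4 lower, with a median of 0.047, and 1 was lower at an unadjusted p under 0.05, where 2.89% of named genes were. This was NEDD4L, the ubiquitin ligase that removes the sodium channel from the membrane, at -3.57, -2.87 and -3.29 in ischemia kidneys, against -2.80, -2.54 and -2.47 in control kidneys. The groups did not overlap, as in 4.25% of named genes in that direction, and the difference was -0.64 ± 0.24 (limma adjusted p = 0.751). SCNN1G, the gamma subunit of the channel, differed by -0.47 ± 0.27. TSC22D3, a glucocorticoid-induced regulator also known to respond to aldosterone, differed by 0.40 ± 0.39.

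In the collecting duct, all 5 tested probes of AVPR2, AQP2 and AQP3 had a mean below that of the controls, with a median difference of -0.34, and only the AVPR2 sign turned under another scaling. AVPR2, the V2 receptor through which vasopressin raises cyclic AMP, gave -1.13, -0.89 and -1.08 in ischemia kidneys, against -0.995, -0.89 and -0.93 in control kidneys. All 6 kidneys lay within 0.24 of each other, the narrowest range of the members, and the difference was -0.095 ± 0.18 (SE; 95% interval -0.52 to 0.33; limma adjusted p = 0.959). Its sign turned under median centring (0.056) and in the deposited table (0.175).

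AQP2, the vasopressin-regulated water channel of principal cells, gave on probe A_72_P414263 0.71, -0.0025 and 0.23 in ischemia kidneys, against 0.78, 0.71 and 0.68 in control kidneys. The control kidneys lay close together, ischemia kidneys 2 and 3 lay below all of them, and ischemia kidney 1 was level with control kidney 2. The means were 0.31 ± 0.36 in ischemia and 0.72 ± 0.053 in control kidneys (SD, n = 3 each), a difference of -0.41 ± 0.23 (SE; 95% interval -0.96 to 0.14; limma adjusted p = 0.887). Within slides 1, 2 and 3 it was -0.78, -0.47 and 0.033, and leaving out 1 array moved it between -0.61 (without ischemia kidney 1, limma adjusted p = 0.858) and -0.25 (without ischemia kidney 2).

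The other AQP2 probe, A_72_P705562, gave -1.25, -0.95 and -1.99 in ischemia kidneys, against -0.38, -1.24 and -1.10 in control kidneys. Here ischemia kidney 3 was the lowest and control kidney 1 the highest, and the remaining kidneys overlapped. The difference was -0.49 ± 0.35 (SE; 95% interval -1.31 to 0.33; limma adjusted p = 0.908), and it was -0.57, -0.75 and -0.15 within slides 1, 2 and 3. It was -0.19 without ischemia kidney 3 and -0.23 without control kidney 1. The AQP2 probes had similar mean differences but ordered the kidneys differently, with a Pearson r of 0.368 between them over the 6 arrays, against 0.976 between the AQP3 probes. Ischemia kidney 2 was the lowest kidney on the first probe and the second highest on the other, so the value for a single kidney depends on the probe. The genes whose values ran most closely with the brighter AQP2 probe were BLOC1S3 (Pearson r = 0.983), HKDC1 (r = 0.977) and MDFI (r = 0.977).

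AQP3, a channel for water and glycerol in the basolateral membrane of principal cells, gave on probe A_72_P442022 1.71, 1.13 and 0.93 in ischemia kidneys, against 1.83, 1.78 and 1.05 in control kidneys. Probe A_72_P088641 gave 0.78, 0.38 and -0.053 in ischemia kidneys, against 1.13, 0.98 and 0.023 in control kidneys. On both probes ischemia kidneys 2 and 3 and control kidney 3 were low and the other 3 kidneys were high, so the groups overlapped.

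The AQP3 differences were -0.30 ± 0.31 and -0.34 ± 0.36 (SE; limma adjusted p = 0.940 for both). Leaving out 1 array moved them between -0.13 for both (without ischemia kidney 3) and -0.55 and -0.69 (without control kidney 3). Within slides they had no common direction: the first probe gave -0.70, -0.84 and 0.66 for slides 1, 2 and 3, and the second gave -0.75, -1.03 and 0.76. AQP4, the other basolateral water channel, was not well above background on any of the 6 arrays. Its processed signal was 3.11, 3.34 and 3.28 in ischemia kidneys, against 8.44, 3.16 and 10.8 in control kidneys, where the lowest signal counted as well above background was between 12.2 and 16.5 per array. No fold is given for it.

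Of 15 tested genes of vasopressin signalling, a list that also holds AVPR1A, the receptor of the V1a type, 7 were higher and 8 lower, with a median of -0.0054. At an unadjusted p under 0.05, 1 gene was lower, where 2.89% of named genes were. This gene, PDE4B, a phosphodiesterase that breaks down cyclic AMP, read -1.10, -1.30 and -1.04 in ischemia kidneys, against -1.15, 0.13 and 0.32 in control kidneys, a difference of -0.92 ± 0.39 (limma adjusted p = 0.793). AKAP13, an anchor protein for protein kinase A, read 3.43, 2.81 and 2.91 in ischemia kidneys, against 2.59, 2.51 and 2.76 in control kidneys. All its ischemia values lay above the control values, as in 7.64% of named genes in that direction, and the difference was 0.43 ± 0.23 (limma adjusted p = 0.873). The 4 AKAP13 probes gave differences of 0.13 to 0.54. PRKACA, the catalytic subunit of protein kinase A, differed by 0.30 ± 0.21.

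Of the other aquaporins, 5 of 6 tested genes had differences below 0, where 47.4% of named genes were lower. Their median was -0.38, and none had an unadjusted p under 0.05. The median was -0.059 without ischemia kidney 3, -0.21 without control kidney 3, -0.24 without control kidney 2, -0.63 without ischemia kidney 1 and -0.049 in the deposited table. These genes were dim: the summed signal of the list was 8.77 to 13.0 in ischemia and 10.9 to 14.8 in control kidneys. AQP5 differed by -0.43 ± 0.26 and AQP10 by -0.33 ± 0.31. AQP8 differed by -1.65 ± 1.18, a value set by control kidney 3 alone, which read 1.82 while the other 5 kidneys lay between -3.32 and -2.42.

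**Figure D3:**
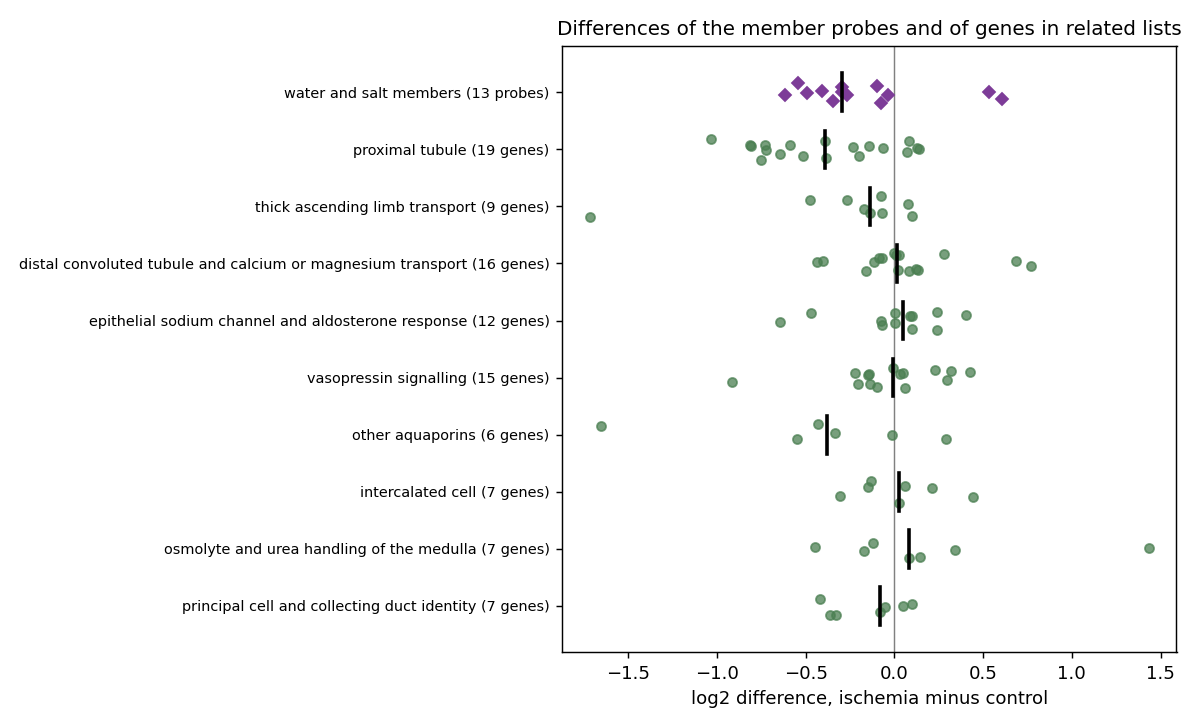
Log2 difference, ischemia minus control, of the 13 member probes (diamonds) and of the tested genes in the 9 related lists (circles, each gene by its brightest probe), with the median of each row as a black bar. The members' median is -0.30, the proximal tubule list's -0.39 and the other aquaporins' -0.38 (-0.059 without ischemia kidney 3), and the remaining medians lie between -0.14 and 0.083. The other aquaporins gave dim signals.

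Of 7 tested markers of principal cell and collecting duct identity, 2 were higher and 5 lower, where 47.4% of named genes were lower. Their median was -0.081, and none had an unadjusted p under 0.05. That median was -0.30 without ischemia kidney 1, 0.052 without ischemia kidney 3 and 0.070 with median centring. The transcription factors TFAP2B and GATA3 differed by -0.42 ± 0.29 and -0.33 ± 0.31, and the keratin KRT18 by -0.36 ± 0.41. Intercalated cells, the acid-base cells between principal cells, had 4 of 7 tested genes higher and 3 lower, with a median of 0.028 and none at an unadjusted p under 0.05. RHBG, an ammonium carrier, differed by -0.31 ± 0.26, SLC4A1, the chloride-bicarbonate exchanger, by 0.45 ± 0.47, and CA2, carbonic anhydrase 2, by 0.21 ± 0.23.

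Of 7 tested genes of osmolyte and urea handling, 4 were higher and 3 lower, with a median of 0.083. ARG2, the mitochondrial arginase that splits arginine into ornithine and urea, read 3.02, 3.25 and 4.07 in ischemia kidneys, against 2.59, 1.52 and 1.94 in control kidneys. All ischemia values were above all control values, as in 7.64% of named genes in that direction. The difference was 1.43 ± 0.37, with 0.67, 2.55 and 1.08 within slides 1, 2 and 3. It did not pass the test (limma unadjusted p = 0.00596, adjusted p = 0.591), and 3.74% of named genes were higher at an unadjusted p under 0.05. The 3 ARG2 probes gave differences of 1.32 to 1.62. CLU, clusterin, a secreted chaperone, differed by -0.45 ± 0.31 and CRYAB, a small heat shock protein, by 0.34 ± 0.45.

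Cell type markers were read beside these values. The summed signal of 8 fibroblast and smooth muscle markers was 142 to 168 in ischemia and 118 to 134 in control kidneys, without overlap. A sum on the linear scale weighs the brightest gene most, and how often sums of other lists lie apart was not tested. Of the single genes, 1 had all ischemia values above the control values and 1 had all below. Among named genes 7.64% and 4.25% did so. In this list 5 genes were higher and 3 lower, where 47.4% of named genes were lower. ACTA2, smooth muscle actin and the brightest of them, differed by 0.28 ± 0.22. It read 6.61, 6.70 and 6.23 in ischemia kidneys, against 6.23, 6.06 and 6.41 in control kidneys, so its groups overlapped. COL1A2, a collagen I chain with 1 tested probe, was dim. It read -3.90, -3.25 and -3.35 in ischemia kidneys, against -2.36, -1.78 and -1.43 in control kidneys. The difference was -1.64 ± 0.30 (limma adjusted p = 0.387). For 7 glomerular markers the summed signal was 20.9 to 27.8 in ischemia and 21.3 to 24.8 in control kidneys. Among them CLIC5 differed by -0.063 ± 0.22 (-0.46 to 0.21 over its 5 probes) and WT1 by 0.69 ± 0.36. For 9 endothelial markers the summed signal was 30.6 to 42.6 in ischemia and 32.6 to 37.0 in control kidneys. Their differences were above 0 for 7 genes and below 0 for 2. Among them PECAM1 differed by 0.092 ± 0.21 (-0.24 to 0.092 over its 4 probes) and TEK by 0.78 ± 0.29. None of these genes passed the adjusted threshold, and the part of cell makeup in the member values was not tested.

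For 8 leukocyte markers the summed signal was 11.6 to 16.5 in ischemia and 11.3 to 12 in control kidneys, with 4 genes higher and 4 lower, among them AIF1 at 0.33 ± 0.25 and CD247 at -1.33 ± 0.23. CD163, a macrophage receptor in that list, named after its values were seen, had a difference of 1.42 ± 0.32 (limma adjusted p = 0.495). For 5 skeletal muscle and fat markers the summed signal was 32.1 to 45.2 in ischemia and 32.8 to 37.4 in control kidneys. Among them ACTA1 differed by 0.14 ± 0.19 (-0.16 to 0.67 over its 10 probes) and MYLPF by -2.34 ± 0.26. The 3 probes of MYLPF disagreed, with differences of -2.34 to -0.011. Of the adrenal cortex markers, CYP17A1, STAR and MC2R were not well above background on any array, and the summed signal of the 3 that were tested was 0.365 to 0.395 in ischemia and 0.454 to 0.523 in control kidneys, with HSD3B1 at -0.15 ± 0.26 and CYP11A1 at -0.48 ± 0.24.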

How the data were processed

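Total RNA was labelled with Cy3 and hybridised to Agilent arrays, each with 43803 spots besides the control spots. Scanner files were deposited with an intensity per spot that, per the file headers, was background-subtracted within each array by Feature Extraction 10.10.1.1; the submitters' processing notes name version 11.5.1.1, R 2.15.2 and limma. The authors' deposited table is on the log2 scale (column medians 5.91 to 5.99), its scaling and the handling of repeated probes are not given in the sources used here, and it served as an alternative.

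Here each processed signal was taken as log2 relative to its array's 75th percentile, without control and outlier spots, averaged per probe. Probes well above background on at least 3 of 6 arrays, with a value on at least 5, were tested with limma 3.58.1 in R 4.3.3 (lmFit, eBayes, two-sided) and Benjamini-Hochberg adjustment over 25017 probes. Differences are ischemia minus control. An exact permutation test of 3 against 3 cannot go below 0.1, so none is given. The fit was tested on simulated data. List genes were taken by their brightest probe, and 12047 probes had a symbol, 55 of them through full names in the descriptions. Probe sequences are those of the scanner files, and no coordinates are given.

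Members, lists and tests were chosen with earlier results of these data known. Named were all members, up to 3 genes of smallest p per pathway list, the brightest gene and that of smallest p per marker list, and the 3 genes most like AQP1 and AQP2. Sample numbers 1 to 3 were not taken as pairs, because the labels give different pigs. Deviations of same-numbered arrays from their group means correlated at -0.348, -0.168 and -0.050, and those on the same slide at 0.334, 0.342 and 0.102. Such deviations sum to 0 within each group of 3, so these correlations depend on each other and cannot decide on pairing. Alternatives were other scalings, background corrections and filters, the deposited table, outlier spots kept, a block for slide or for number, weighted arrays, a trended variance, genes as the mean over their probes, and each array left out.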

Additional observations from a re-analysis of the deposited data

How the results depend on the processing

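No member probe passed the adjusted threshold under any of the 18 alternatives, and 216 of 229 member values kept their direction. The count of 216 includes settings that leave each member's difference unchanged by design. These are the filters, the slide block, the replicate block and the variance trend, under which no member value could turn. The values that turned were AVPR2 with median centring (0.056) and in the deposited table (0.175), EGF probe A_72_P442781 with median centring (0.115) and quantile normalization (0.052), and NR3C2 with median centring (0.075), quantile normalization (0.037), the deposited table (0.120) and array weights (0.162). With 1 array left out, that EGF probe ranged from -0.275 to 0.230 and turned without ischemia kidney 1 (0.230), control kidney 1 (0.106) and control kidney 2 (0.058), and NR3C2 ranged from -0.221 to 0.049 and turned without ischemia kidney 2 (0.049) and control kidney 1 (0.035). Members below 0 were 11 of 13, but 5 of 8 in the deposited table. Over all probes, 1 passed; 0 passed with quantile normalization, a filter of 1 array, no filter on dim probes, slide as a block or the replicate block, 3 with normexp, the deposited table, a filter of all 6 arrays or a variance trend, 11 with median centring, 21 with array weights, and 0 to 1 with 1 array left out. With the replicate block 0 member probes passed. The member differences under that block are those of the main fit, so the 11 of 13 below 0 could not change. Pathway lists with a median below 0 were 5 of 9, 2 with median centring, 3 in the deposited table and 2 to 8 with 1 array left out (8 without ischemia kidney 2 or control kidney 3, 3 without ischemia kidney 3, 2 without control kidney 1). Array weights were estimated gene by gene after the default method had not converged, and control kidney 2 had a weight of 8.66 against 0.496 to 0.847 for the others. In that setting CALB1 differed by 1.28 on both probes, and 4 member probes (those of CALB1, HSD11B2 and EGF probe A_72_P634012) had an unadjusted p under 0.05, as had 1908 probes higher and 2787 lower of all 25017. The lowest adjusted p of a member was 0.165. The causes of these shifts were not tested. AQP4 was too dim for any comparison, and 3 kidneys per group limit every other value.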
